A study of Homo sapiens with 6 samples.

Results

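The AP-1 transcription factor genes FOS, FOSB, FOSL1, FOSL2, JUN, JUNB, JUND, ATF3, MAFF and BATF3 were examined in human fibroblasts undergoing oncogene-induced senescence (OIS). They were chosen by symbol: every probe set, the group of short oligonucleotides with which the array reads a transcript, whose platform annotation names one of the 10 genes was taken. This gave 23 of the 54613 probe sets on the array, and the 10 genes stand among 19775 genes that have a probe set of their own. All 6 samples were IMR90 cells, normal human lung fibroblasts of a single established line, that carry an ER:Ras fusion switched on by 4-hydroxytamoxifen (4-OHT). For RB-KD OIS, cells were given 100 nM 4-OHT over 6 days and a mixture of siRNAs against RB1 transfected 4 days before RNA isolation. Ctrl-KD OIS cells received the same 4-OHT treatment and a control siRNA at the same time. Growing cells carried the same ER:Ras fusion but received no 4-OHT, and no siRNA is named for them. Each state had 2 biological replicates, given below as replicate 1 and replicate 2 in that order. Since both OIS states were transfected and no transfection is named for growing cells, 4-OHT treatment and siRNA transfection cannot be told apart in a comparison with growing cells.

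AP-1 is a dimer of basic leucine zipper proteins that binds a short DNA element in many promoters and enhancers. FOS proteins must pair with a JUN protein to bind DNA, JUN proteins can also pair with each other, and ATF3, the small MAF protein MAFF and BATF3 are zipper proteins that join or compete with these dimers. Ras signalling through the ERK kinases is a classical inducer of FOS and FOSL1, JNK kinases activate JUN, and AP-1 is known for driving matrix metalloproteinase and cytokine genes in fibroblasts.

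Promoter sequences from RefSeq (GRCh38.p14), each holding 250 bases before the annotated start and 50 after it, were found for 8 of the 10 genes, in 10 windows. FOSL1 and BATF3 had no entry. The windows were searched on both strands for the AP-1 site TGANTCA, the cyclic AMP response element TGACGTCA, the CArG box bound by SRF and the E2F site TTTNGCGC. Of all 35116 windows of the same length, 7.71% hold TGANTCA, 1.85% TGACGTCA, 1.29% a CArG box and 1.79% TTTNGCGC. TGACGTCA was found in the JUND window, its first base at position -200 from the start, and in the first of both MAFF windows, at position -54. TGANTCA was found in the FOSL2 window only, as TGACTCA at position 5 after the start, and neither the CArG box nor TTTNGCGC was found in any of the 10 windows. The variant TGACATCA, added to the search after the sequences were seen, is in the JUN window at position -67 and in the first of both ATF3 windows at position -123, against 2.61% of all windows. The 250 bases before these 4 starts are shown 5′ to 3′ with the matches in capitals, because JUN, JUND, ATF3 and MAFF are the members with a match there and each differs between states below. The MAFF stretch is chr22:38201744-38201993 on the plus strand, JUND chr19:18281623-18281872 on the minus strand, JUN chr1:58784048-58784297 on the minus strand and ATF3 chr1:212565157-212565406 on the plus strand.
MAFF: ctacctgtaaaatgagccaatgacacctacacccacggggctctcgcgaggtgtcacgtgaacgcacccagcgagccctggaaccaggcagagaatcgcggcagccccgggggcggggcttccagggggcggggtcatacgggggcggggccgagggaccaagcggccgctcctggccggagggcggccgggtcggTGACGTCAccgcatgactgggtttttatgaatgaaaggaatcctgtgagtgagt
JUND: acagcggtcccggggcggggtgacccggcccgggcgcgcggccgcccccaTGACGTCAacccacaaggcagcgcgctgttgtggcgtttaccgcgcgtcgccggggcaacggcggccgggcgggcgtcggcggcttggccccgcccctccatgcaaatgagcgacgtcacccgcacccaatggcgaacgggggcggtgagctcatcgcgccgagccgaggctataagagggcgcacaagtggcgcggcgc
JUN: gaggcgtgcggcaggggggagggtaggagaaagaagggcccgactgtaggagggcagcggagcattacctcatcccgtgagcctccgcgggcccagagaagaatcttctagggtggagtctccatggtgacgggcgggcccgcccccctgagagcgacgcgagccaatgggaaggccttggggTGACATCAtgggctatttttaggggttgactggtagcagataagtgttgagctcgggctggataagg
ATF3: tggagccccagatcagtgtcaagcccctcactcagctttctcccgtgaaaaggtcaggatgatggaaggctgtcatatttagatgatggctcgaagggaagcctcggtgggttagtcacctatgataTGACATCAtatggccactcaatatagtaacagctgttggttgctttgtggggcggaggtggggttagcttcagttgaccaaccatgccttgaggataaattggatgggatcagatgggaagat

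Values are MAS5 signals, a linear fluorescence measure of a probe set, whose median over an array was 46 to 51.8 on these 6 arrays. RB1 itself had signals of 222 and 228 in RB-KD OIS, 2578 and 1914 in Ctrl-KD OIS and 2627 and 2528 in growing cells, so the knockdown was seen on both RB-KD OIS arrays (log2 difference -3.30 ± 0.15 SE, adjusted p = 3.36e-06). HRAS, whose probe set could read the fusion as well as the cells' own gene, had signals of 19981 and 18685 in RB-KD OIS, 22631 and 27036 in Ctrl-KD OIS and 24229 and 22654 in growing cells, and was lower in RB-KD OIS than in Ctrl-KD OIS cells (log2 difference -0.36 ± 0.097 SE, adjusted p = 0.0342). Replicates correlated at r = 0.961 to 0.967 and arrays of different states at 0.891 to 0.945, over probe sets on the log2 scale. All 12 fibroblast markers with a probe set were above the array median on all 6 arrays, with a summed signal of 253600 to 306200 in RB-KD OIS, 233500 to 237600 in Ctrl-KD OIS and 312700 to 313800 in growing cells. Set against growing cells, 1 of these, COL6A1, was higher and 5 were lower in RB-KD OIS, where 18.0% and 18.5% of all genes tested were. In Ctrl-KD OIS 0 were higher and 8 lower, where 19.9% and 20.7% of all genes were. Between the OIS states LUM, COL3A1 and THY1 were higher in RB-KD OIS (log2 differences of 1.65, 1.31 and 0.66) and 0 were lower, where 11.6% and 10.3% of all genes were. Markers of leukocytes, endothelium and epithelium summed to 523 to 567 in RB-KD OIS, 545 to 546 in Ctrl-KD OIS and 528 to 661 in growing cells over 12 genes, of which 7 in RB-KD OIS, 7 in Ctrl-KD OIS and 6 in growing cells were below the array median on both arrays. Of the same 12, 3 in RB-KD OIS, 3 in Ctrl-KD OIS and 5 in growing cells were above it on both arrays. The part of these fibroblast marker differences in the results below was not tested.

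Each gene was read from its brightest probe set, and differences are on the log2 scale with adjusted p values from limma over the 30139 probe sets above the array median on at least 2 arrays. All 10 genes and 22 of the 23 member probe sets passed that filter. Among the 10 members, FOS, ATF3, MAFF and BATF3 were higher and FOSL1 and FOSL2 lower in RB-KD OIS than in growing cells. For Ctrl-KD OIS the members above growing cells were FOS, JUN, JUND and MAFF, and FOSL2 was below. Between the OIS states, RB-KD OIS cells had more ATF3 and BATF3 signal and less FOSL1 signal than Ctrl-KD OIS cells. Against growing cells, 4 of 10 members were called higher and 2 lower in RB-KD OIS, where 18.0% of the 13438 genes tested were higher and 18.5% lower. In Ctrl-KD OIS 4 were higher and 1 lower, where the shares of all genes were 19.9% and 20.7%. Between the OIS states 2 members were higher and 1 was lower in RB-KD OIS, where 11.6% and 10.3% of all genes were. FOS is in both counts against growing cells, although its growing arrays were below the array median and it passed the filter only through its OIS arrays. FOSB passed only through its Ctrl-KD OIS arrays and was not called. Over the other 8 members, all above the array median on every array, 3 were higher and 2 lower in RB-KD OIS and 3 were higher and 1 lower in Ctrl-KD OIS. Their median difference from growing cells was 0.50 in RB-KD OIS and 0.36 in Ctrl-KD OIS. The medians over all genes tested were -0.02 for RB-KD OIS and -0.01 for Ctrl-KD OIS. Between the OIS states the median was 0.19 over these 8 and -0.02 over all genes. The comparisons against growing cells share the same growing arrays, and no called member went one way in one and the other way in the other. In bulk RNA of this kind, a change in every cell and a change in the share of cells cannot be told apart. With a prior variance that does not follow the signal, the calls of FOS, JUN and JUND, of FOSL2 in RB-KD OIS and of ATF3 between the OIS states were lost, at adjusted p from 0.0523 to 0.104.

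**Figure D1:**
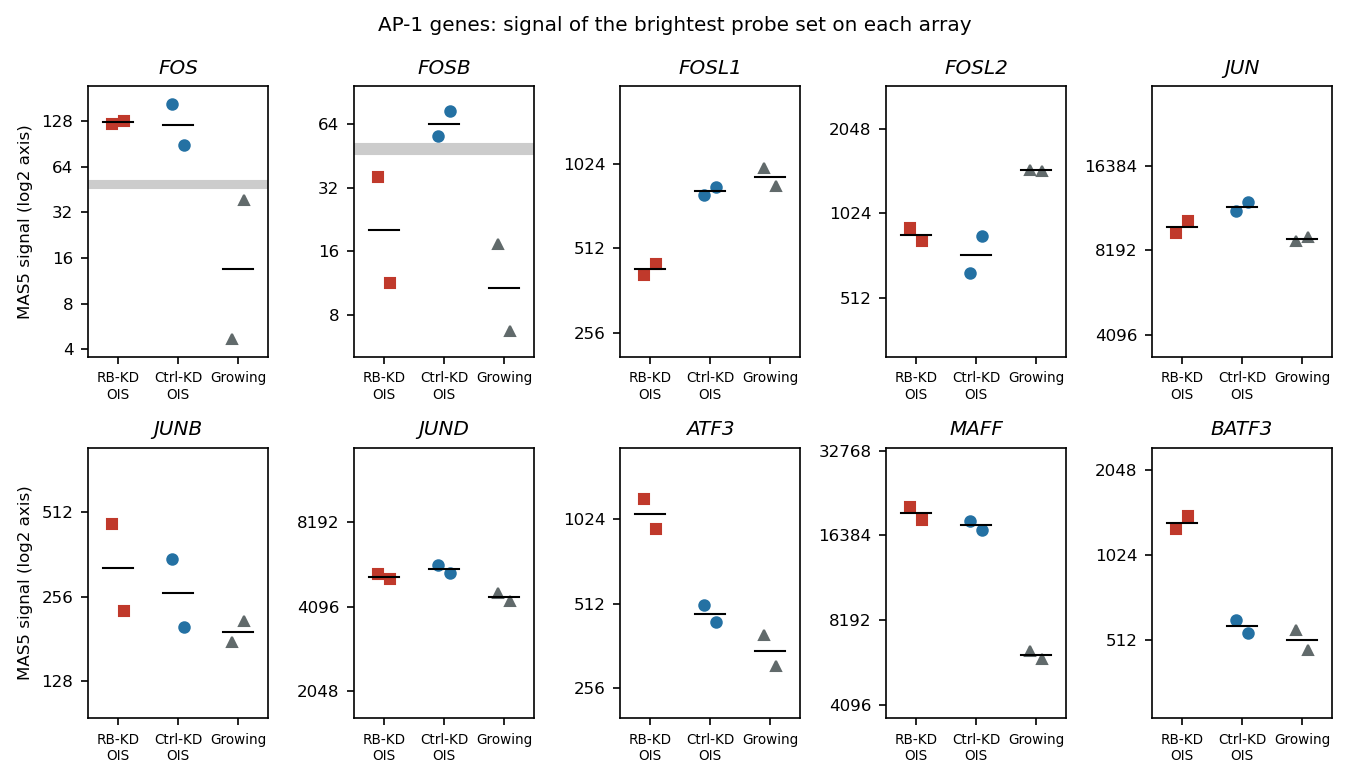
MAS5 signal of each AP-1 gene's brightest probe set on a log2 axis, with RB-KD OIS (squares), Ctrl-KD OIS (circles) and growing cells (triangles). Points are single arrays, black bars are means of the log2 signals, every axis spans its own range of at least 3.2 log2 units, and the grey band is the range of the array medians, 46 to 51.8. Both OIS states are above growing cells for MAFF, while for ATF3, BATF3 and FOSL1 the RB-KD OIS arrays stand apart from the other 4.

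**Figure D2:**
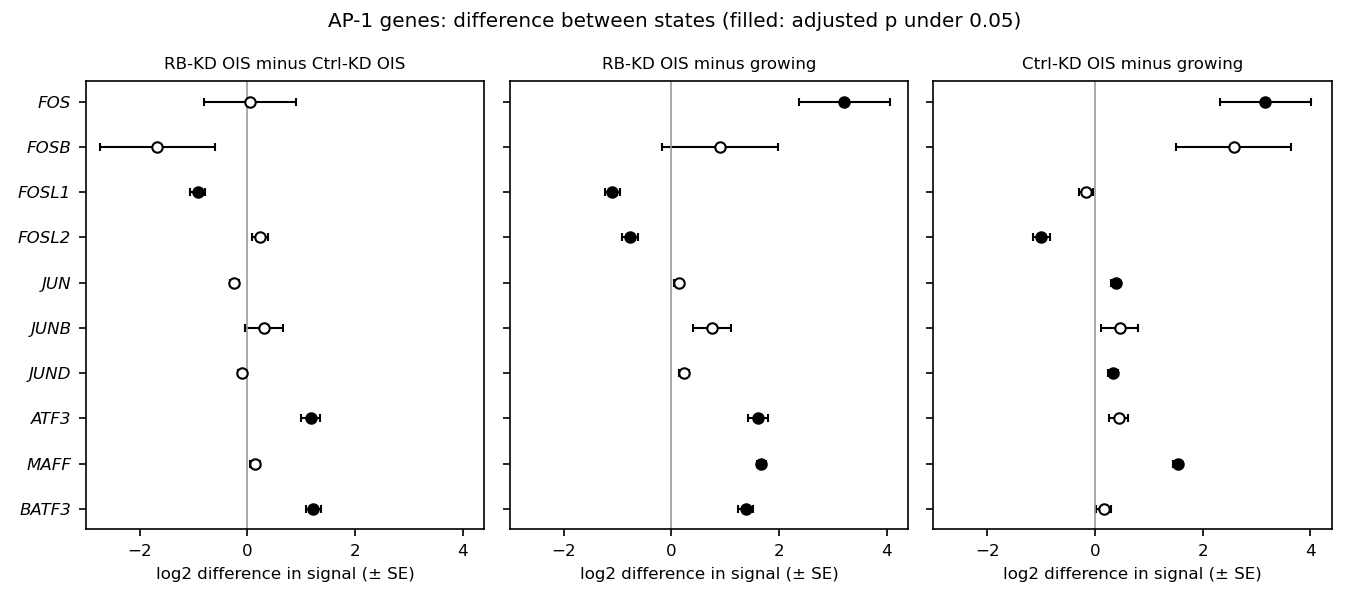
Difference in log2 signal between states for each AP-1 gene's brightest probe set, with bars for the standard error of the fit. Filled points have an adjusted p under 0.05: ATF3, BATF3 and FOSL1 between the OIS states, 6 members for RB-KD OIS and 5 for Ctrl-KD OIS when set against growing cells.

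The FOS family did not move as one. FOSL1, a Fos-related protein without the transactivation domain of FOS and a sensitive target of ERK signalling, had signals of 411 and 452 in RB-KD OIS, 790.1 and 845 in Ctrl-KD OIS and 993 and 853 in growing cells. Both RB-KD OIS arrays were below the other 4, and the ranges of Ctrl-KD OIS and growing cells did not overlap but lay close together. FOSL1 was lower in RB-KD OIS than in Ctrl-KD OIS cells (log2 difference -0.92 ± 0.14 SE, adjusted p = 0.00188) and than in growing cells (log2 difference -1.09 ± 0.14 SE, adjusted p = 0.00027). The difference between Ctrl-KD OIS and growing cells did not pass (log2 difference -0.17 ± 0.14 SE, adjusted p = 0.373). FOSL1 kept both calls under every alternative processing tried, with log2 differences from -0.99 to -0.85 between the OIS states.

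FOSL2, the other Fos-related protein, was read by 5 probe sets that disagreed. The brightest, 225262_at, gave 909.7 and 815 in RB-KD OIS, 631 and 848 in Ctrl-KD OIS and 1459 and 1455 in growing cells, with the arrays of both OIS states below the growing arrays and overlapping each other. It was called lower in RB-KD OIS (log2 difference -0.76 ± 0.15 SE, adjusted p = 0.00429) and in Ctrl-KD OIS (log2 difference -0.99 ± 0.15 SE, adjusted p = 0.000723) than in growing cells. The OIS states did not differ past the threshold (log2 difference 0.24 ± 0.15 SE, adjusted p = 0.346). The second, 228188_at, gave 707 and 768 in RB-KD OIS, 441 and 482 in Ctrl-KD OIS and 699 and 805 in growing cells. In this reading only the Ctrl-KD OIS arrays were low. FOSL2 by 228188_at was higher in RB-KD OIS than in Ctrl-KD OIS cells (log2 difference 0.68 ± 0.14 SE, adjusted p = 0.0094), and Ctrl-KD OIS lay below the growing state (log2 difference -0.70 ± 0.14 SE, adjusted p = 0.00326). RB-KD OIS and growing cells overlapped (log2 difference -0.03 ± 0.14 SE, adjusted p = 0.911). The other 3 probe sets ranged from 6.9 to 180.1 and none was called. Both bright probe sets thus read less FOSL2 in Ctrl-KD OIS than in the growing state, and the RB-KD OIS level depended on which one was read. Both FOSL2 calls against growing cells were lost where all 5 probe sets were averaged, with adjusted p = 0.297 for RB-KD OIS and 0.704 for Ctrl-KD OIS, and the call between the OIS states by 228188_at was lost without RB-KD OIS replicate 2 (0.0582).

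FOS, the founding member and a transient early-response gene, was dim. Its single probe set gave 123 and 128 in RB-KD OIS, 165 and 88.9 in Ctrl-KD OIS and 4.7 and 38.8 in growing cells, so all 4 OIS arrays were above the array median and both growing arrays were below it. Against that floor FOS exceeded growing cells at least 2.48-fold in RB-KD OIS and at least 2.39-fold in Ctrl-KD OIS. The limma fit gave adjusted p = 0.018 for RB-KD OIS and 0.0172 for Ctrl-KD OIS. It used the growing signals under the median as they were read, so these p values do not test the bounds. The ranges of the OIS states overlapped (log2 difference 0.05 ± 0.85 SE, adjusted p = 0.978). FOS passed the signal filter only through its OIS arrays. Its call in RB-KD OIS was lost without RB-KD OIS replicate 1 (adjusted p = 0.0855) or replicate 2 (0.0925), and its call in Ctrl-KD OIS without Ctrl-KD OIS replicate 1 (0.115).

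FOSB, a FOS paralogue that is likewise induced early by growth signals, had signals of 36.1 and 11.3 in RB-KD OIS, 56.2 and 73.5 in Ctrl-KD OIS and 17.4 and 6.7 in growing cells. The 2 Ctrl-KD OIS arrays alone were above the array median, and no FOSB difference was called. The adjusted p of FOSB was 0.0955 for Ctrl-KD OIS against growing cells and 0.347 between the OIS states, and RB-KD OIS and growing cells were both under the median.

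By the brightest probe sets, the called differences of the JUN family were smaller than those of the FOS family. JUN, the main partner of the FOS proteins and the substrate that gave the JNK kinases their name, was read by 4 probe sets. The brightest, 201464_x_at, whose suffix marks probes that may bind other transcripts, gave 9415 and 10415 in RB-KD OIS, 11292 and 12164 in Ctrl-KD OIS and 8847 and 9149 in growing cells. Ctrl-KD OIS arrays were highest, RB-KD OIS arrays stood between, and no ranges overlapped. The JUN rise in Ctrl-KD OIS over growing cells was called (log2 difference 0.38 ± 0.086 SE, adjusted p = 0.00691). The RB-KD OIS difference from growing cells was not called (log2 difference 0.14 ± 0.086 SE, adjusted p = 0.261), nor was that between the OIS states (log2 difference -0.24 ± 0.086 SE, adjusted p = 0.0855). The second probe set, 201466_s_at, gave 2062 and 2221 in RB-KD OIS, 3048 and 3049 in Ctrl-KD OIS and 2058 and 2100.0 in growing cells, with the Ctrl-KD OIS arrays above the other 4. By it JUN was lower in RB-KD OIS than in Ctrl-KD OIS cells (log2 difference -0.51 ± 0.092 SE, adjusted p = 0.00538) and Ctrl-KD OIS lay above the growing state (log2 difference 0.55 ± 0.092 SE, adjusted p = 0.00132). RB-KD OIS and growing cells overlapped (log2 difference 0.04 ± 0.092 SE, adjusted p = 0.776). The other 2 JUN probe sets were not called. One, 201465_s_at, had 523 and 781 in RB-KD OIS, 635 and 743 in Ctrl-KD OIS and 578 and 629.5 in growing cells. The last, 213281_at, had 666 and 462 in RB-KD OIS, 986 and 654 in Ctrl-KD OIS and 632 and 441 in growing cells. In all 4 readings the mean of Ctrl-KD OIS was the highest of the 3 states. The study also listed JUN in a cluster found on these same arrays, described as genes raised in Ctrl-KD OIS but lowered in RB-KD OIS cells. The order of states for JUN is therefore not independent of that clustering. The JUN call by 201464_x_at was lost without growing replicate 1 (adjusted p = 0.0769).

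JUNB and JUND are the 2 remaining JUN proteins, JUNB a weaker activator induced by growth signals and JUND a broadly expressed one linked to restrained proliferation. JUNB had 465 and 227 in RB-KD OIS, 348 and 200.1 in Ctrl-KD OIS and 177 and 209 in growing cells. Replicate 1 was higher than replicate 2 in both OIS states, and on the log2 scale that gap exceeded the differences between state means. The growing replicates lay closer together, and both RB-KD OIS arrays were above both growing arrays. No JUNB comparison was called. Without RB-KD OIS replicate 2, the lower of its pair, JUNB was called higher in RB-KD OIS than in growing cells (adjusted p = 0.0321). JUND by its brightest probe set, 203752_s_at, gave 5333 and 5128 in RB-KD OIS, 5785 and 5391 in Ctrl-KD OIS and 4590.2 and 4282 in growing cells. All 4 OIS arrays were above both growing arrays, by 1.26-fold on average in Ctrl-KD OIS (log2 difference 0.33 ± 0.087 SE, adjusted p = 0.0148) and 1.18-fold in RB-KD OIS (log2 difference 0.24 ± 0.087 SE, adjusted p = 0.0665). The OIS states were not called different (log2 difference -0.09 ± 0.087 SE, adjusted p = 0.524). JUND in Ctrl-KD OIS was not called without Ctrl-KD OIS replicate 1 (adjusted p = 0.0501), growing replicate 1 (0.0588) or growing replicate 2 (0.149). In RB-KD OIS, JUND was called without Ctrl-KD OIS replicate 1 (0.0419) or replicate 2 (0.0415) and under median centring (0.0215). The other 3 JUND probe sets gave 5.1 to 128.2, near or under the array median, and 214326_x_at was the member probe set that was not tested.

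ATF3, a stress-induced zipper protein that represses as a homodimer and can pair with JUN, stood out in RB-KD OIS cells. Its brightest probe set, 202672_s_at, gave 1204 and 947 in RB-KD OIS, 507 and 441 in Ctrl-KD OIS and 397 and 307 in growing cells. Each RB-KD OIS array was above the other 4, and Ctrl-KD OIS arrays were above growing arrays by less. ATF3 was 2.26-fold higher in RB-KD OIS than in Ctrl-KD OIS cells (log2 difference 1.18 ± 0.18 SE, adjusted p = 0.00232) and 3.06-fold higher than in growing cells (log2 difference 1.61 ± 0.18 SE, adjusted p = 0.000144). The difference of Ctrl-KD OIS from growing cells missed the threshold (log2 difference 0.44 ± 0.18 SE, adjusted p = 0.0913). Its second probe set, 1554980_a_at, gave 236 and 247 in RB-KD OIS, 89.5 and 141 in Ctrl-KD OIS and 197 and 101 in growing cells. Both RB-KD OIS arrays were again the highest, and the difference from Ctrl-KD OIS cells was of like size with a larger error (log2 difference 1.11 ± 0.35 SE, adjusted p = 0.059). The third, 1554420_at, had 8.8 to 70.8 with overlapping states and no call. The ATF3 call between the OIS states was lost where all 3 probe sets were averaged (difference of 0.53, adjusted p = 0.36), as was the call against growing cells in RB-KD OIS (0.32, adjusted p = 0.546).

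BATF3, a zipper protein without a transactivation domain that pairs with JUN proteins and is best known from dendritic cells, followed the same order as ATF3. It had 1265 and 1405 in RB-KD OIS, 601 and 542 in Ctrl-KD OIS and 552 and 472 in growing cells. The RB-KD OIS arrays were above all others, and the Ctrl-KD OIS and growing ranges overlapped. BATF3 was 2.34-fold higher in RB-KD OIS than in Ctrl-KD OIS cells (log2 difference 1.22 ± 0.14 SE, adjusted p = 0.00047) and 2.61-fold higher than in growing cells (log2 difference 1.39 ± 0.14 SE, adjusted p = 7.09e-05). Ctrl-KD OIS did not differ past the threshold from growing cells (log2 difference 0.16 ± 0.14 SE, adjusted p = 0.412). Both BATF3 calls were kept under every alternative processing tried. Of the leukocyte markers, PTPRC, the pan-leukocyte antigen, had 47.6 and 2.8 in RB-KD OIS, 8.6 and 36.5 in Ctrl-KD OIS and 62.6 and 50.7 in growing cells. CD3E had 34.8 and 19.5 in RB-KD OIS, 66.3 and 101.7 in Ctrl-KD OIS and 86.6 and 68.3 in growing cells. CD14 had 34.4 and 45.6 in RB-KD OIS, 22 and 15.7 in Ctrl-KD OIS and 34.4 and 16.7 in growing cells. The CD14 signals were below the array median on every array.

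MAFF, a small MAF protein that has no transactivation domain and pairs with other zipper proteins, showed the largest called rise among members read above the array median in all 3 states. Its brightest probe set, 36711_at, gave 20724 and 18566 in RB-KD OIS, 18438 and 17168 in Ctrl-KD OIS and 6335 and 5948 in growing cells. Both OIS states were far above growing cells and near each other. MAFF was 3.20-fold higher in RB-KD OIS (log2 difference 1.68 ± 0.087 SE, adjusted p = 1.23e-06) and 2.90-fold in Ctrl-KD OIS (log2 difference 1.54 ± 0.087 SE, adjusted p = 1.51e-06) than in growing cells. The difference between the OIS states did not pass (log2 difference 0.14 ± 0.087 SE, adjusted p = 0.328). The second probe set, 205193_at, gave 2779.9 and 2457 in RB-KD OIS, 2582 and 2536 in Ctrl-KD OIS and 716 and 729 in growing cells, log2 differences from growing cells of 1.85 in RB-KD OIS and 1.82 in Ctrl-KD OIS, and 0.03 between the OIS states. Both MAFF probe sets kept their calls under every alternative in which they were read.

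**Figure D3:**
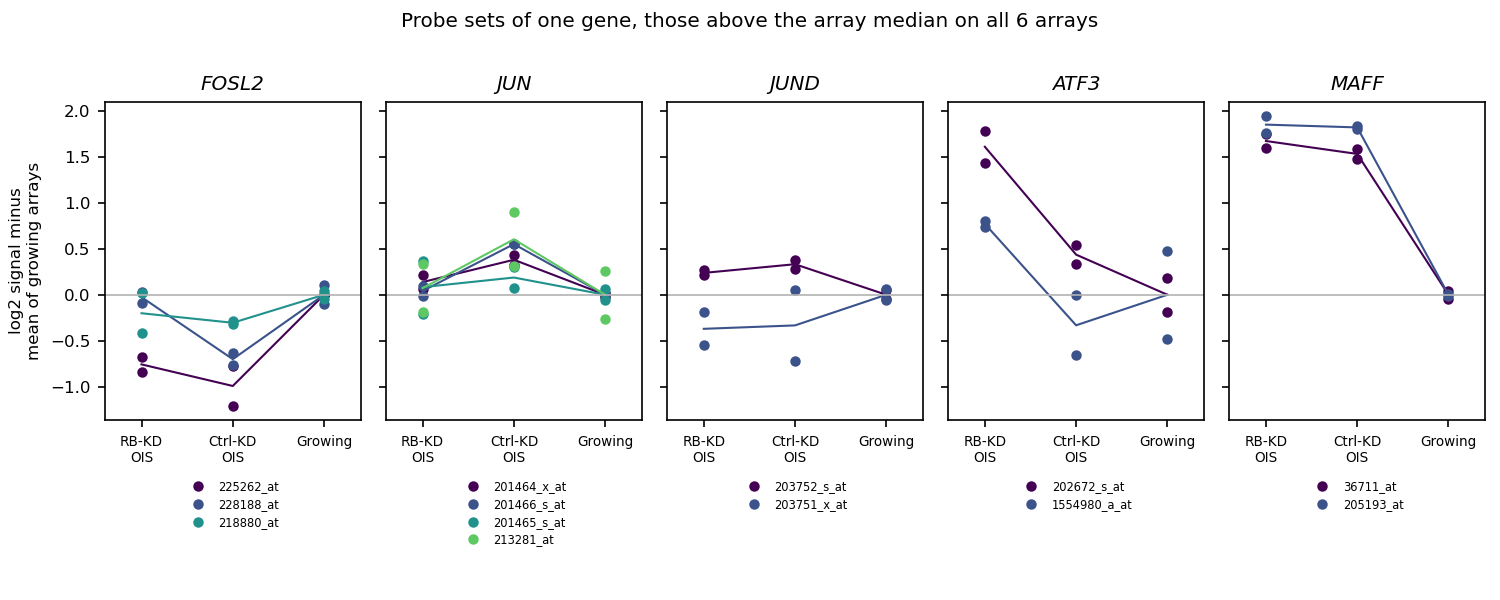
Log2 signal of each probe set minus its own mean on the growing arrays, for the 5 members with several probe sets and only those above the array median on all 6 arrays. Points are arrays and lines join state means. The MAFF probe sets run together, the JUN probe sets share a maximum in Ctrl-KD OIS, and the FOSL2 probe sets separate in RB-KD OIS, where 225262_at is 0.76 below growing cells and 228188_at 0.03 below.

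The calls between the OIS states thus divided the members by direction, with ATF3 and BATF3 higher and FOSL1 lower in RB-KD OIS, as read from the brightest probe sets. By those probe sets, neither FOSL1 nor BATF3 differed past the threshold between Ctrl-KD OIS and growing cells, and ATF3 passed it only under quantile normalization, median centring or the replicate block (adjusted p = 0.0327, 0.0486 and 0.0305). JUN by 201466_s_at and FOSL2 by 228188_at were called in both of these comparisons. Over the 6 arrays, the genes whose centred log2 signals lay nearest to FOSL1 among 13437 genes were PDAP1 (distance 0.193), SLC30A1 (0.198) and L3HYPDH (0.226). Those nearest to ATF3 were EML1 (0.34), RBM47 (0.351) and MAP3K21 (0.355), and those nearest to JUN were TIMM50 (0.086), FAM229B (0.087) and FLYWCH2 (0.089). These distances are Euclidean, in log2 units, and describe likeness over 3 states with 2 arrays each.

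Of 18 other zipper proteins tested, not all of them partners of AP-1 subunits, 4 were higher and 5 lower in RB-KD OIS than in growing cells, where 18.0% and 18.5% of all genes were. In Ctrl-KD OIS 4 were higher and 7 lower, where the shares of all genes were 19.9% and 20.7%. The counts in RB-KD OIS and the higher count in Ctrl-KD OIS lay near these shares. Between the OIS states 2 of the 18 were higher and 1 lower in RB-KD OIS, where 11.6% and 10.3% of all genes were. JDP2, a repressor that pairs with JUN, had 487 and 387 in RB-KD OIS, 297 and 322 in Ctrl-KD OIS and 1085 and 1062 in growing cells, so both OIS states were lower than growing cells (log2 difference -1.31 ± 0.15 SE, adjusted p = 2e-04 in RB-KD OIS and log2 difference -1.79 ± 0.15 SE, adjusted p = 1.95e-05 in Ctrl-KD OIS). ATF4, the effector of the amino acid and unfolded protein response, had 16779 and 13809 in RB-KD OIS, 7639 and 8114 in Ctrl-KD OIS and 17917 and 17579 in growing cells. The Ctrl-KD OIS arrays of ATF4 were low and the others near each other, with a called difference between the OIS states (log2 difference 0.95 ± 0.10 SE, adjusted p = 0.000325). ATF5, a relative of ATF4, was likewise higher in RB-KD OIS than in Ctrl-KD OIS cells (log2 difference 0.72 ± 0.14 SE, adjusted p = 0.00779). ATF7, which binds the cyclic AMP response element with JUN, went the other way between the OIS states, with 788 and 978 in RB-KD OIS, 1441 and 1619 in Ctrl-KD OIS and 645 and 554 in growing cells (log2 difference -0.80 ± 0.15 SE, adjusted p = 0.00559). MAFG, another small MAF, was higher than in growing cells in RB-KD OIS (log2 difference 0.72 ± 0.13 SE, adjusted p = 0.00209) and in Ctrl-KD OIS (log2 difference 0.61 ± 0.13 SE, adjusted p = 0.00435).

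Among 18 tested kinases of the ERK, JNK and p38 pathways, which act upstream of AP-1, 5 were higher and 4 lower in RB-KD OIS than in growing cells, where 18.0% and 18.5% of all genes were. In Ctrl-KD OIS 5 were higher and 3 lower, where 19.9% and 20.7% of all genes were, so the kinase counts lay near the shares of all genes. Between the OIS states 2 of the 18 were higher and 1 lower in RB-KD OIS, where 11.6% and 10.3% of all genes were. MAPK13, the p38 delta kinase, had 969.6 and 1005 in RB-KD OIS, 1222 and 1246 in Ctrl-KD OIS and 352 and 297 in growing cells, above growing cells in both OIS states (log2 difference 1.61 ± 0.13 SE, adjusted p = 2.07e-05 in RB-KD OIS and log2 difference 1.93 ± 0.13 SE, adjusted p = 4.53e-06 in Ctrl-KD OIS). RPS6KA2, an RSK kinase that ERK activates, had 284 and 206 in RB-KD OIS, 242 and 224 in Ctrl-KD OIS and 2186 and 1900.2 in growing cells, below growing cells in both (log2 difference -3.08 ± 0.18 SE, adjusted p = 2.48e-06 in RB-KD OIS and log2 difference -3.13 ± 0.18 SE, adjusted p = 1.59e-06 in Ctrl-KD OIS). RPS6KA5, the MSK kinase that acts on chromatin at early genes, was higher in RB-KD OIS than in Ctrl-KD OIS cells (log2 difference 1.21 ± 0.33 SE, adjusted p = 0.0363). MAP2K2, a kinase directly above ERK, was lower there (log2 difference -0.51 ± 0.10 SE, adjusted p = 0.00795). Of the 6 genes for SRF and its partner factors, SRF had 653 and 669 in RB-KD OIS, 444 and 439 in Ctrl-KD OIS and 732 and 739 in growing cells. It was the only one called between the OIS states (log2 difference 0.58 ± 0.12 SE, adjusted p = 0.0123), where 11.6% of all genes were higher and 10.3% lower in RB-KD OIS. Against growing cells, 1 of the 6 was higher and 1 lower in RB-KD OIS, where 18.0% and 18.5% of all genes were. In Ctrl-KD OIS 0 of the 6 were higher and 3 lower, where 19.9% and 20.7% of all genes were.

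Of 24 tested early-response genes other than AP-1, 5 were higher and 8 lower in RB-KD OIS than in growing cells, where 18.0% and 18.5% of all genes were. In Ctrl-KD OIS 7 were higher and 10 lower, where the shares of all genes were 19.9% and 20.7%. Between the OIS states 4 of the 24 were higher and 2 lower in RB-KD OIS, where 11.6% and 10.3% of all genes were. NR4A3, a nuclear receptor, had 1550.2 and 1065 in RB-KD OIS, 872 and 697 in Ctrl-KD OIS and 25.4 and 33.3 in growing cells, at least 25.4-fold higher in RB-KD OIS and at least 15.4-fold in Ctrl-KD OIS, since both growing arrays were below the array median. IER3, an early gene tied to survival, had 52376 and 47104 in RB-KD OIS, 39919 and 46113 in Ctrl-KD OIS and 7614 and 7253 in growing cells, far higher on all 4 OIS arrays. EGR3, a zinc finger factor, had 470.2 and 279 in RB-KD OIS, 667 and 362 in Ctrl-KD OIS and 53.8 and 62.6 in growing cells, a level above growing cells on all 4 OIS arrays. Among the falls, GADD45B and KLF2 were called lower than growing cells in RB-KD OIS (log2 differences -2.12 and -2.21) and in Ctrl-KD OIS (-2.34 and -2.20). CCN2 was called lower as well (-1.89 in RB-KD OIS and -2.09 in Ctrl-KD OIS). KLF4, a zinc finger factor of growth arrest, had 262 and 192 in RB-KD OIS, 70.1 and 62.1 in Ctrl-KD OIS and 459.5 and 372 in growing cells, lowest in Ctrl-KD OIS cells. KLF4 was higher in RB-KD OIS than in Ctrl-KD OIS cells (log2 difference 1.77 ± 0.24 SE, adjusted p = 0.00135), and so was SGK1, a serum-induced kinase (log2 difference 1.10 ± 0.12 SE, adjusted p = 0.000405).

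Textbook targets of AP-1 were mostly higher in both OIS states. Of 25 tested, 18 were higher and 0 lower in RB-KD OIS than in growing cells, with a median difference of 1.13, where 18.0% and 18.5% of all genes were. In Ctrl-KD OIS 20 were higher and 2 lower, with a median of 1.70, where 19.9% and 20.7% of all genes were. IL1B had 59101 and 53487 in RB-KD OIS, 45452 and 56834 in Ctrl-KD OIS and 186 and 188 in growing cells. PTGS2, the inducible cyclooxygenase, had 28602 and 23519.8 in RB-KD OIS, 22319 and 18602 in Ctrl-KD OIS and 74.6 and 109 in growing cells. MMP1, the interstitial collagenase, had 58797 and 57410.4 in RB-KD OIS, 54242 and 56411 in Ctrl-KD OIS and 18529 and 19328 in growing cells. The OIS values of IL1B and MMP1 were near the top of the range, as the brightest probe set of an array had 54242 to 64701. Most of these genes are also targets of NF-kappaB or other factors, so the list is no measure of AP-1 alone. It was also chosen with earlier results of these data known, so its counts beside the shares of all genes are a description and no test.

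Between the OIS states 6 of 25 targets were higher and 6 lower in RB-KD OIS, with a median difference of 0.12, where 11.6% and 10.3% of all genes were. IL11, a cytokine of the IL6 family, had 23384 and 16742 in RB-KD OIS, 6016 and 4615 in Ctrl-KD OIS and 1129 and 873 in growing cells. CCL2, a monocyte chemokine, had 2286 and 2962 in RB-KD OIS, 1179 and 989.9 in Ctrl-KD OIS and 1867 and 1538 in growing cells. Both were higher in RB-KD OIS than in Ctrl-KD OIS cells (log2 difference 1.91 ± 0.18 SE, adjusted p = 0.000209 for IL11 and log2 difference 1.27 ± 0.16 SE, adjusted p = 0.000742 for CCL2), as was IL6 (log2 difference 0.72 ± 0.090 SE, adjusted p = 0.000871). MMP10, stromelysin-2, had 499.6 and 573 in RB-KD OIS, 3435 and 2247 in Ctrl-KD OIS and 115 and 88.0 in growing cells. SPP1, the matrix protein osteopontin, had 65.6 and 81.0 in RB-KD OIS, 205 and 358 in Ctrl-KD OIS and 39.5 and 50.6 in growing cells. Both were lower in RB-KD OIS than in Ctrl-KD OIS cells (log2 difference -2.38 ± 0.22 SE, adjusted p = 0.000147 for MMP10 and log2 difference -1.89 ± 0.37 SE, adjusted p = 0.00789 for SPP1), as was HBEGF, an EGF receptor ligand (log2 difference -1.09 ± 0.15 SE, adjusted p = 0.00142).

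Of 11 tested genes that restrain AP-1 or remove its proteins, 2 were higher and 1 lower in RB-KD OIS than in growing cells, where 18.0% and 18.5% of all genes were. In Ctrl-KD OIS 3 were higher and 2 lower, where the shares of all genes were 19.9% and 20.7%. TRIB1, a scaffold for the COP1 ubiquitin ligase, had 9286 and 8683 in RB-KD OIS, 10349 and 10784 in Ctrl-KD OIS and 2959 and 2259 in growing cells, above growing cells in both OIS states. FBXW7, the ubiquitin ligase subunit that recognises phosphorylated JUN, was higher in RB-KD OIS (log2 difference 0.90 ± 0.17 SE, adjusted p = 0.0029) and in Ctrl-KD OIS (log2 difference 0.73 ± 0.17 SE, adjusted p = 0.00772) than in growing cells. DET1 was lower than in growing cells in RB-KD OIS (log2 difference -0.67 ± 0.15 SE, adjusted p = 0.00819) and in Ctrl-KD OIS (log2 difference -0.53 ± 0.15 SE, adjusted p = 0.0221). Between the OIS states 1 of the 11 was higher and 0 were lower in RB-KD OIS, where 11.6% and 10.3% of all genes were. The called gene was NR3C1, the glucocorticoid receptor that represses AP-1 (log2 difference 0.38 ± 0.089 SE, adjusted p = 0.0182). It had 4558 and 4472 in RB-KD OIS, 3363 and 3577 in Ctrl-KD OIS and 5605 and 5115 in growing cells.

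**Figure D4:**
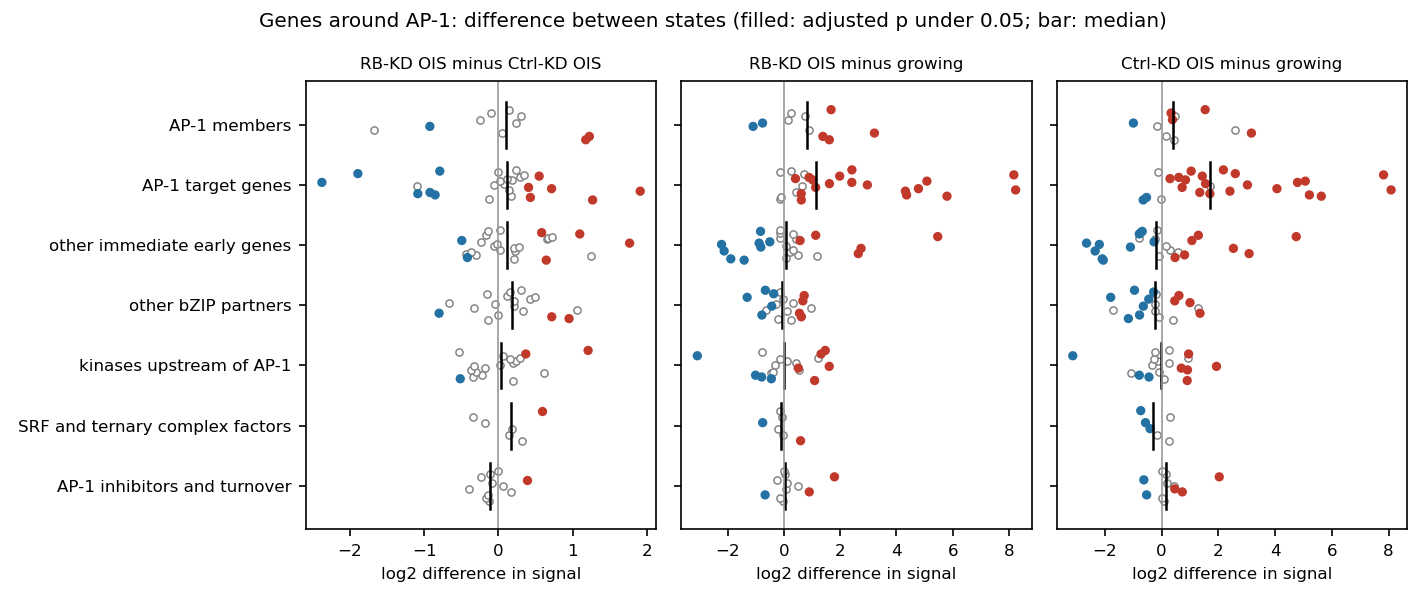
Difference in log2 signal between states for each tested gene, grouped by list, with a black bar at the list median. Filled points have an adjusted p under 0.05, red higher and blue lower, and open points did not pass. The AP-1 targets lie mostly to the right of 0 against growing cells, with medians of 1.13 in RB-KD OIS and 1.70 in Ctrl-KD OIS, and are spread on both sides between the OIS states.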

How the data were processed

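RNA of 6 IMR90 ER:Ras samples, 2 biological replicates in each of 3 states, was hybridized to Affymetrix U133 Plus 2.0 arrays. The deposited intensities are MAS5 signals, which the authors computed in Affymetrix Expression Console (versions not given in the sources used here). They are linear, carry no detection calls and have trimmed means (a share of 0.02 cut at each end) of 496.2 to 496.5. The 6 arrays limit the precision, and nothing says whether replicates with one number share a culture. The p-values therefore rest on the spread between these samples, drawn towards a prior variance estimated over all probe sets tested.

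Log2 signals without an offset were fitted with limma 3.58.1 (R 4.3.3) over the 30139 probe sets that exceeded the median of their array on 2 or more arrays. The model held one mean per state and a prior variance with a trend on signal, and calls were made at a Benjamini-Hochberg adjusted p under 0.05. With 2 arrays against 2, an exact two-sided permutation test cannot go below p = 0.333. Of the probe sets, 41091 name 1 gene, 1801 several, and 11721 are unnamed here. A gene's values are those of the probe set with the highest mean signal that names no other gene. A state below the array median on both arrays gave only a bound, computed against that median. Named genes were all members, RB1 and HRAS, and the 3 genes nearest to FOSL1, ATF3 and JUN. Up to 3 called rises and 3 called falls of each list, with no overlap between arrays, were named as well. Some of these are left out. MMP1 is named outside this rule, and PTPRC, CD3E, CD14 and THY1 were added after values were seen. Members and lists were chosen with earlier results of these data known. The fit was tested on simulated data.

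Alternatives changed one choice at a time: quantile normalization or median centring of the arrays, an added offset of 12.5, the signal filter (none, or percentile 70), the unit fitted (a gene's brightest probe set, or the mean of its probe sets), the prior variance without a trend, arrays of only the compared states, a replicate block, and the omission of single arrays.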

Additional observations from a re-analysis of the deposited data

How the results depend on the processing

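Over the brightest member probe sets, 440 of the values under an alternative kept their direction and their side of the threshold, 17 lost a call, 10 gained one and 7 changed sign. FOSL1, MAFF and BATF3 kept every call. With no trend in the prior variance, members called higher fell to 1 of 4 in Ctrl-KD OIS against growing cells and to 1 of 2 between the OIS states, and members called lower in RB-KD OIS against growing cells to 1 of 2. The calls lost were those of FOS in both OIS states (adjusted p = 0.104 in RB-KD OIS and 0.0996 in Ctrl-KD OIS), JUN (0.0842) and JUND (0.102) in Ctrl-KD OIS, FOSL2 in RB-KD OIS (0.0523) and ATF3 (0.0591), JUN by 201466_s_at (0.0773) and FOSL2 by 228188_at (0.0707) between the OIS states. All genes called were then 1501 higher and 1605 lower for RB-KD OIS and 1761 higher for Ctrl-KD OIS, both against growing cells, and 467 higher and 191 lower between the OIS states. With a gene read as the mean over all its probe sets, dim ones included, these were 1453 and 1586, 1730 and 1854, and 874 and 775. Against growing cells, members called lower were then 1 in RB-KD OIS and 0 in Ctrl-KD OIS, and between the OIS states 1 was higher and 2 lower, JUN being the added one (adjusted p = 0.0387). That mean turned the sign for ATF3 (-0.22) and JUND (-0.24) when Ctrl-KD OIS was set against growing cells and for FOSL2 (-0.32) and JUND (0.27) between the OIS states, none of them called. ATF3 in Ctrl-KD OIS was called under quantile normalization (adjusted p = 0.0327), median centring (0.0486) and the replicate block (0.0305). FOSL2 by 228188_at in RB-KD OIS against growing cells became 0.050 under quantile normalization and 0.085 under median centring.

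The replicate block gave 5 members higher in Ctrl-KD OIS against growing cells and changed no other count of members. Deviations of arrays with one number correlated at 0.036 between the OIS states. With growing cells they correlated at -0.014 for RB-KD OIS and 0.01 for Ctrl-KD OIS. These correlations run over all probe sets tested and cannot tell whether such arrays share a culture or day. Without single arrays, members called higher in Ctrl-KD OIS numbered 2 to 4. All genes called between the OIS states ran from 933 to 1421 higher and from 682 to 1146 lower, the lowest without RB-KD OIS replicate 1, and those lower in RB-KD OIS against growing cells from 1522 without growing replicate 1 to 2659. JUNB in RB-KD OIS was called without RB-KD OIS replicate 2 (adjusted p = 0.0321). Uncalled differences between the OIS states ran from -0.39 to 0.50 for FOS, from -0.21 to 0.82 for JUNB and from -0.059 to 0.12 for MAFF by 205193_at, and those between RB-KD OIS and growing cells from -0.13 to 0.076 for FOSL2 by 228188_at and from -0.012 to 0.095 for JUN by 201466_s_at. FOS and FOSB lay near or under the array median, and their differences had the largest errors among the brightest member probe sets (SE 0.85 for FOS and 1.07 for FOSB).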
